A study of Mus musculus with 48 samples.

Results

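RNA polymerase III makes transfer RNAs, 5S ribosomal RNA and other short RNAs, and the genes described here encode 8 of its subunits and one of its initiation factors: *Polr3a*, *Polr3b*, *Polr3c*, *Polr3d*, *Polr3e*, *Polr3f*, *Polr3g*, *Polr3k* and *Brf1*. They were chosen by name, as all probes whose accession leads to one of these 9 symbols, which gave 16 of the 41174 probes and 9 of the 18434 named genes on the arrays. RNA from the liver or colon of C57/BL6 offspring aged 12 weeks was labelled with Cy3 and hybridised on 2-colour arrays with a common Cy5-labelled mouse reference RNA, so each value is a log2 ratio of mouse over reference. The comparisons ask how the diet of the dam and the diet of her offspring after weaning relate to gene expression. Group names give the dam's diet in gestation and lactation first and then that of the pup from weaning. Diet H is named sufficient in selenium and folate here and diet L deficient. The methods give diet H as supplemented with both above the recommended requirements and diet L as marginally deficient. HH mice thus had the sufficient diet throughout and LL mice the deficient diet throughout, HL mice were moved to the deficient diet at weaning, and LH mice were moved to the sufficient diet. Per the methods both diets were high in fat and the offspring were male, so no group had a standard chow. Liver values came from 5 HH mice and 6 mice of each of the other groups (n = 23), and colon values from 6 mice of each group (n = 24). The labels do not say which mice shared a dam, nor whether a liver and a colon came from one mouse, so p-values measure the spread between these samples only. The reference is multi-organ in the labels and pooled intestine and liver in the methods, and every ratio depends on its make-up.

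The enzyme is built around *Polr3a* and *Polr3b*, the large subunits that form the catalytic centre. *Polr3d* and *Polr3e* encode a pair of proteins that act in initiation and termination, and *Polr3k* encodes a small subunit needed for cleavage of the nascent RNA and for termination. *Polr3c*, *Polr3f* and *Polr3g* encode a trimer that contacts the initiation factor TFIIIB, in which *Brf1* is the TFIIB-related part. *Polr3g* has a paralogue, *Polr3gl*, which can take its place in the trimer; the *Polr3g* form is known from stem cells and early development and the *Polr3gl* form from most adult tissues. Liver and gut epithelium both make much protein, and cell growth raises the demand for transfer RNA and 5S RNA, which is why Maf1, a repressor, and Myc, an activator, are counted among the regulators of the enzyme.

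The regions upstream of the genes are shown because 1 of them holds a gene of the kind the enzyme transcribes. Of the 9 genes, 6 had a window of 250 bases before the start site in the RefSeq table used (build GRCm38.p6); those of *Polr3a*, *Polr3d* and *Brf1* were not analysed here. In that build the genes lie apart from each other, for example *Polr3e* at chr7:120917778-120947435, *Polr3g* at chr13:81673837-81711013 and *Polr3k* at chr2:181864360-181870830. The windows of *Polr3e* (chr7:120917528-120917777, plus strand), *Polr3g* (chr13:81711014-81711263, minus strand), *Polr3k* (chr2:181864110-181864359, plus strand) and the paralogue *Polr3gl* (chr3:96594182-96594431, minus strand) are printed 5′ to 3′ on the strand of the gene. Capitals mark the GC box GGGCGG, the CCAAT box CCAAT, the E-box CACGTG and the first letters of a B box, GGTTCGA, each searched on both strands.
Polr3e: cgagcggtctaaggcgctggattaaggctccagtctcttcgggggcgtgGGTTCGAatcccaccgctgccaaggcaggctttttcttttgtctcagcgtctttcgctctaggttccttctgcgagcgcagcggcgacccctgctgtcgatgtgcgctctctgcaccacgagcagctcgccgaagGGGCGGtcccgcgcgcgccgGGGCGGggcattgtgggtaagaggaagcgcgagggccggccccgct
Polr3g: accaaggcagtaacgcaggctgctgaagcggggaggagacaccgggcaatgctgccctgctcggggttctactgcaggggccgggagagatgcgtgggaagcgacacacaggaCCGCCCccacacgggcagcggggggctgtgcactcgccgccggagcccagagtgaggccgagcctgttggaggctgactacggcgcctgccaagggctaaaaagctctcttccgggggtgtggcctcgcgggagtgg
Polr3k: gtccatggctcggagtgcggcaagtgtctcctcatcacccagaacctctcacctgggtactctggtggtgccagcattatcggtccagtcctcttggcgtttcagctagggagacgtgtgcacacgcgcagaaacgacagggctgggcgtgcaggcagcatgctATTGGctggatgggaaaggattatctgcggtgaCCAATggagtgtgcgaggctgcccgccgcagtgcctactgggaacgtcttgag
Polr3gl: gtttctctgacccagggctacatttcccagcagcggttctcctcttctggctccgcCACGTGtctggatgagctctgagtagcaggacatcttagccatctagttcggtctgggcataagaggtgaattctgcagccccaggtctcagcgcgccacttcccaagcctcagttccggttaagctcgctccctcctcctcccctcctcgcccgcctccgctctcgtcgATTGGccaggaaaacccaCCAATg

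In the *Polr3e* window RefSeq annotates the transfer RNA gene n-TLaag4 (7:120917517-120917598, 82 bases), which ends 179 bases before the *Polr3e* start site, and GGTTCGA lies inside it, 201 bases before that start site. The B box is the internal element of transfer RNA genes that TFIIIC binds. These letters were chosen for the search after the sequence was seen, and 0.758% of the 32851 windows counted hold them. The windows counted do not cover every chromosome. A transfer RNA gene reaches into the window of 5 of 17492 protein-coding genes (0.0286%). The window of *Polr3e* also has 2 GC boxes, 66 and 46 bases before the start, and that of *Polr3g* has 1. GC boxes occur in 3 of the 6 windows, against 32.7% of the 32851 windows counted, and the E-box, the sequence bound by Myc and related factors, in 1 (*Polr3c*), against 6.02%. The CCAAT box occurs in 1 of the 6 (*Polr3k*, 2 copies), against 33.8%, and TATAAA in 0 of the 6, against 12.4%. These letters are a description of the windows and no measurement of binding.

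Of the 16 probes, 13 had Cy3 signals well above background on each of the 48 arrays. The exceptions were the weaker probes of *Polr3b* (14 of 24 liver and 23 of 24 colon arrays), *Polr3f* (9 and 16 of 24) and *Polr3g* (11 and 20 of 24), and none was saturated. The brightest probe of a gene stands for it below and the other probes are given beside it. Over all probes, 55.1 to 66% were well above background in Cy3 on liver arrays and 66.8 to 73.7% on colon arrays. The tissue labels fitted these markers: 7 of 7 measured hepatocyte genes were called lower in the colon (median log2 difference -5.79), and 7 of 7 colon epithelium genes (4.77), 4 of 4 goblet cell genes (5.72) and 5 of 5 smooth muscle genes (4.28) were called higher. In log2 summed Cy3 signal, the highest Colon_LL value was 15.71 for Kupffer macrophage genes (group median 11.5) and 15.08 for lymphocyte genes (11.63). The highest Liver_HL value for pancreas acinar genes was 15.39 (11.55). Whether such samples held other tissue was not tested. *Xist*, the marker of an inactive X chromosome, was well expressed in 1 liver and 6 colon mice, of which 1 and 3 had no signal of the Y-linked *Eif2s3y*. The methods give the offspring as male, which these signals do not match.

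In the liver, *Polr3a*, the largest catalytic subunit, had log2 ratios from 0.22 to 0.99 with a median of 0.64, and in the colon from -0.22 to 0.42 with a median of 0.12. Most liver mice lay above most colon mice, and the 2 ranges overlapped. *Polr3b*, its partner in the catalytic centre, ranged from -0.12 to 0.51 in the liver (median 0.18) and from -0.02 to 0.48 in the colon (median 0.16), and the ranges overlapped almost fully. In the initiation trimer, *Polr3g* ranged from -0.04 to 0.93 in the liver (median 0.77) and from -0.24 to 0.47 in the colon (median 0.13). *Polr3f* ranged from -0.13 to 0.49 in the liver (median 0.19) and from -0.48 to 0.18 in the colon (median -0.08). The third protein of the trimer, encoded by *Polr3c*, had medians of 0.19 and 0.24. So *Polr3g* and *Polr3f* sat higher in the liver in most mice, and *Polr3c* did not.

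In the pair acting in termination, *Polr3d* ranged from -0.52 to 0.06 in the liver (median -0.18) and from -0.71 to -0.22 in the colon (median -0.42). *Polr3e* ranged from -1.48 to -0.06 in the liver (median -0.92) and from -1.36 to -0.76 in the colon (median -1.08). Its liver mice spread the widest of the 9 genes (SD 0.35, against 0.15 in the colon). *Polr3k*, the subunit for RNA cleavage, ranged from -0.70 to 0.23 in the liver (median -0.14) and from -0.16 to 0.65 in the colon (median 0.19). The initiation factor *Brf1* ranged from -0.27 to 0.22 in the liver (median -0.03) and from -0.13 to 0.51 in the colon (median 0.24). For *Polr3k* and *Brf1* the colon had the higher median, and the ranges overlapped.

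**Figure D1:**
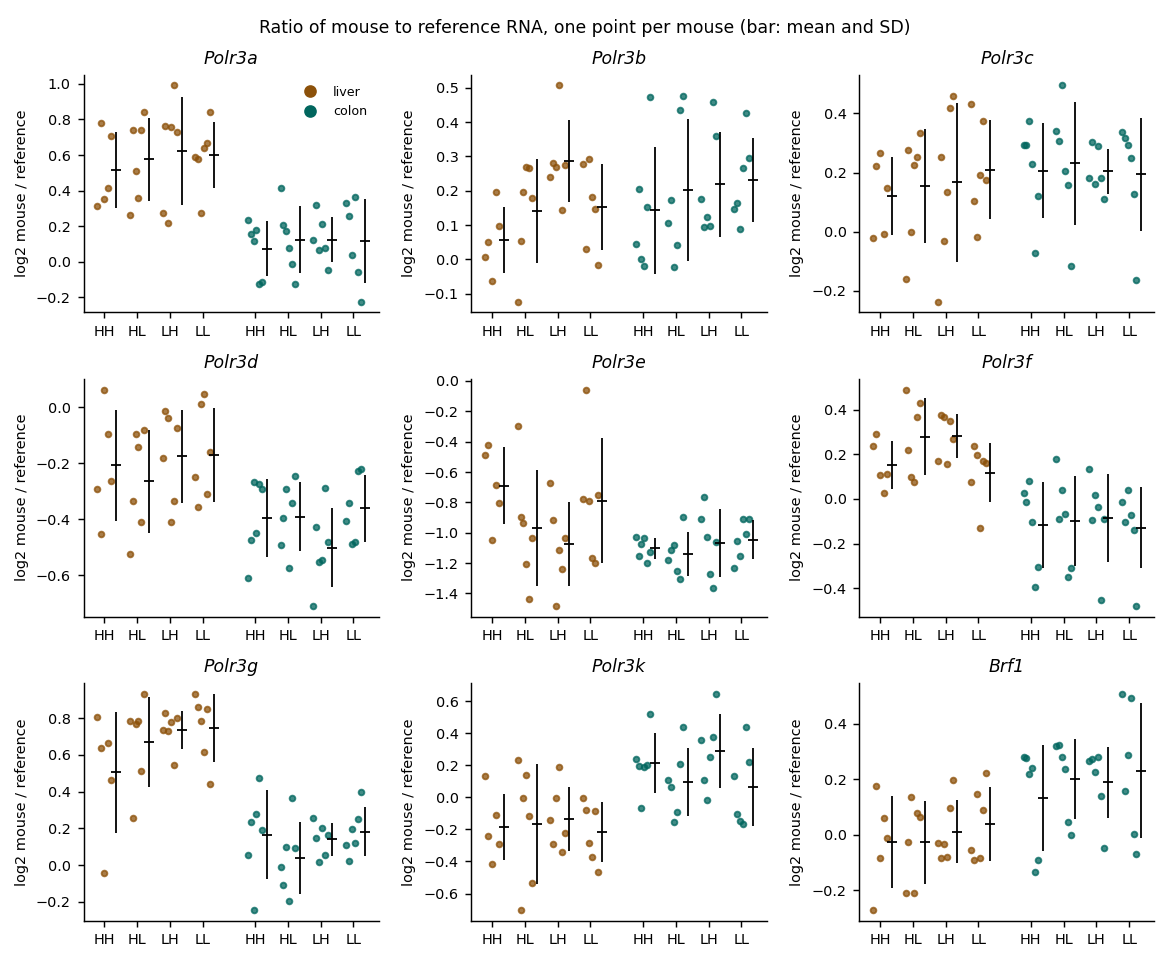
Log2 ratio of mouse over reference (vertical axis) for the brightest probe of each of the 9 genes in every mouse, by diet group within liver and colon, with the mean and SD of each group beside its points. The *Polr3g* and *Polr3a* points lie higher in the liver, with medians of 0.77 and 0.64 against 0.13 and 0.12 in the colon, and the diet groups of a tissue overlap.

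Between the tissues, 13 of the 16 probes differed at an adjusted p under 0.05 (limma with slide as a random block and Benjamini-Hochberg adjustment over all probes), against 63.9% of all probes. Of these, 10 were lower in the colon (33% of all probes) and 3 higher (30.9%). With each array centred on its median instead, 3 of the 16 were lower and 9 higher, and the shares of all probes there are not given here. In the chosen setting, with a fold change over 1.5 asked for as well, 1 of 16 was called, against 30.3% of all probes. The median absolute log2 difference was 0.215 for the 16 probes and 0.268 for all probes. The count of calls was 4 under median centring and 7 with the Cy3 channel alone, and the shares of all probes called there are not given here. Since fewer cells of a type and less RNA per cell cannot be told apart in whole tissue, a difference speaks of the tissue and not of a cell. Each slide held 1 tissue, so tissue and slide cannot be told apart either, and the slide block covers only the spread between slides of a tissue.

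*Polr3g* had a log2 difference, colon minus liver, of -0.53 (SE 0.08, 95% interval -0.69 to -0.38, adjusted p = 3.85e-08), or 1.45-fold lower. Its other probes, at -0.46 and -0.22, had adjusted p values of 0.000166 and 0.00459. *Polr3gl*, the paralogue, differed by 0.04 (SE 0.09, -0.16 to 0.23, adjusted p = 0.773), and its sign turned in 3 of 8 other ways of scaling. *Polr3a* was lower by 0.47 (a log2 difference of -0.47, -0.61 to -0.33, adjusted p = 5.21e-08) and *Polr3f* had a difference of -0.32 (-0.43 to -0.21, adjusted p = 2.51e-06), with -0.24 on its dim probe. All of these turned to values above 0 with median centring, except the dim probes of *Polr3g* and *Polr3f*, as given below.

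*Polr3d* had a difference of -0.21 (SE 0.05, -0.32 to -0.10, adjusted p = 0.000802). The probes of its partner *Polr3e* did not give one value. The brighter one had -0.21 (-0.39 to -0.03, adjusted p = 0.0388) and the other -0.60 (-0.77 to -0.43, adjusted p = 1.77e-08), the single call among the 16, at 1.52-fold. On that second probe the liver mice ranged from -0.44 to 0.33 and the colon mice from -1.23 to -0.19, and its call was lost when any one of the mice Colon_LH replicate 1, Liver_HL replicate 3 or Liver_LL replicate 4 was left out (0 of 16 called), and also with each array's trend over rows taken off (-0.56) and without the repair of the background (-0.58). Over mice the *Polr3e* probes had a Pearson correlation of -0.31 in the liver and 0.06 in the colon, so they did not follow each other; the parts of the transcript they match were not analysed here.

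*Polr3k* was higher in the colon by 0.34 (SE 0.08, 0.18 to 0.51, adjusted p = 0.000202), or 1.27-fold, and its second probe by 0.20 (adjusted p = 0.0168), while the third had -0.06 (-0.23 to 0.11, adjusted p = 0.574). *Brf1* was higher by 0.19 (0.08 to 0.30, adjusted p = 0.00271). *Polr3b* had 0.04 (-0.07 to 0.15, adjusted p = 0.526), with -0.17 on its dim probe (adjusted p = 0.000109), and *Polr3c* had 0.04 (-0.09 to 0.17, adjusted p = 0.596). For these last genes the intervals leave room for a difference of either sign.

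**Figure D2:**
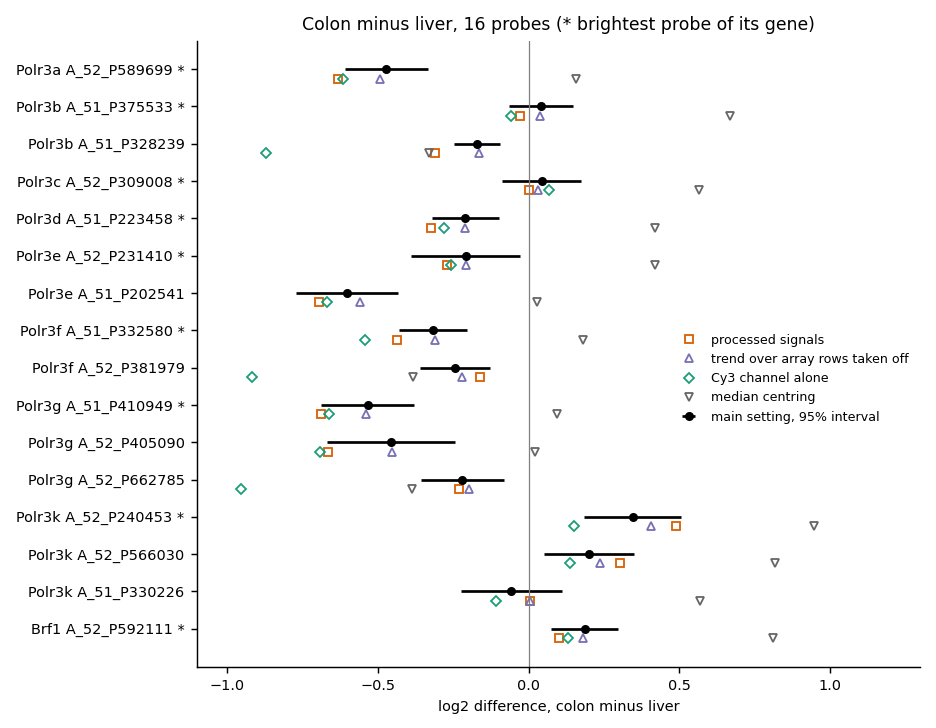
Log2 difference, colon minus liver (horizontal axis), of the 16 probes with its 95% interval (black), beside the value with the scanner software's processed signals, with the trend over array rows taken off, with the Cy3 channel alone and with median centring (grey triangles). The triangles lie at 0.09 for *Polr3g* and 0.95 for *Polr3k*, to the right of the black points at -0.53 and 0.34.

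The sign of the difference turned with the scaling for some of the genes, while the lowest and the highest of the 9 genes stayed the same. *Polr3a*, *Polr3d*, *Polr3e*, *Polr3f* and *Polr3g* lay below 0 in 13 of 14 alternatives, all except median centring. *Polr3k* and *Brf1* stayed above 0 in all 14. The loess step used here fits each array's ratios to centre on 0 along the whole range of brightness, and the median of all probes was then -0.01 between the tissues. When each array was centred on its median instead, the median of all probes became -0.22 and all 9 genes lay above 0 in the colon, from 0.09 for *Polr3g* to 0.95 for *Polr3k*. With the Cy3 channel alone, without the reference, the median of all probes was -0.75 and that of the 16 probes -0.41. The median of the 16 probes minus that of all probes was thus 0.34 with Cy3 alone, and it was 0.515 with median centring. It was -0.199 in the chosen setting and from -0.28 to -0.18 in the other alternatives. A value below 0 with Cy3 alone is therefore not one below the median of all probes. With the brightest probe of each gene, *Polr3g* had the lowest and *Polr3k* the highest difference of the 9 in the chosen setting and all 14 alternatives. The second *Polr3e* probe, at -0.60 in the chosen setting, lay below *Polr3g* at -0.53. The 9 differences correlated with the chosen setting at r = 0.972 to 1 (across genes, which share the arrays). The difference was thus unequal within the enzyme in each of these settings.

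That inequality also showed in the values of single mice, with the brightest probe standing for each gene. The log2 ratio of *Polr3k* minus that of *Polr3g* ran from -1.47 to -0.37 in the liver (median -0.88) and from -0.34 to 0.48 in the colon (median 0.04), and no liver mouse overlapped a colon mouse. The gap between the tissues was 0.88, and 0.81 to 1.18 in the alternatives. *Brf1* minus *Polr3a* ran from -0.89 to -0.13 in the liver (median -0.61) and from -0.10 to 0.25 in the colon (median 0.08), again without overlap, with a gap of 0.66 and 0.60 to 0.75 in the alternatives. Both pairs were chosen after the values were seen, so these are descriptions and carry no test. The third probes of *Polr3k* and *Polr3g* had differences, colon minus liver, of -0.06 and -0.22, closer together than those of the brightest probes. How many other pairs of genes separate the tissues was not analysed here.

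The other genes of the machinery were compared in the same fit, in which 30.3% of all probes were called between the tissues. Of 10 further genes of the enzyme, many of them shared with RNA polymerases I and II, 1 was called higher and 3 lower in the colon, with a median log2 difference of -0.11. *Polr1c*, a subunit shared with RNA polymerase I, was higher by 0.67 (SE 0.05, adjusted p = 8.96e-17). *Polr2l*, a small subunit common to the RNA polymerases I, II and III, had -1.18 (adjusted p = 4.65e-22), *Crcp*, which encodes the RPC9 subunit, -0.99 (adjusted p = 1.22e-17) and *Polr2k*, also common to the polymerases, -0.70 (adjusted p = 6.04e-07).

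Among 10 genes of TFIIIA, TFIIIB and TFIIIC, 1 was called higher and 2 lower (median -0.08). *Gtf3c5*, a TFIIIC subunit, was higher by 0.75 (adjusted p = 2.11e-14), another TFIIIC subunit, *Gtf3c4*, had -0.69 (adjusted p = 8.57e-14), and *Brf2*, which takes the place of *Brf1* at genes such as that of U6 RNA, had -0.60 (adjusted p = 1.8e-13). The 9 measured genes of SNAPc and of regulators had a median of 0.68, with 5 called higher and 0 lower (1 lower at the adjusted p alone). *Maf1*, the repressor, was higher by 1.46 (SE 0.07, adjusted p = 2.13e-22), *Myc*, the activator, by 1.00 (adjusted p = 2.51e-12) and *Pou2f1*, a factor bound upstream of small nuclear RNA genes, by 0.93 (adjusted p = 1.96e-12). The SNAPc subunits *Snapc3* and *Snapc5* were higher by 0.70 and 0.68. Repressor and activator were thus higher in the same tissue.

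For comparison, 1 of 9 measured RNA polymerase I genes was called, *Taf1c*, an initiation factor subunit, higher by 0.99 (adjusted p = 6.18e-14), and 1 of 6 RNA polymerase II genes, *Polr2i*, with -1.25 (adjusted p = 2.58e-14). The list medians were -0.18 and -0.04. None of the 14 list genes called here changed sign in 8 other ways of scaling, and *Maf1*, *Pou2f1*, *Myc*, *Polr2l*, *Gtf3c5*, *Taf1c* and *Polr2i* were called in all 8. Markers of dividing cells moved along with the tissues: 7 of 7 were called higher in the colon, with a median of 1.90. Their part in the differences of *Myc* and of the polymerase genes was not tested.

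**Figure D3:**
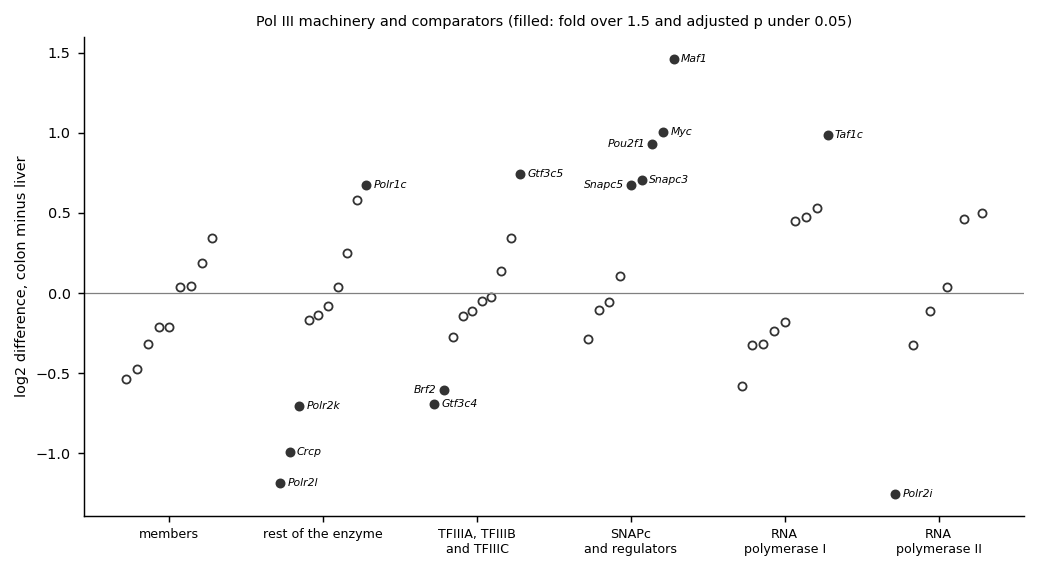
Log2 difference, colon minus liver (vertical axis), of each measured gene of the polymerase III lists and of RNA polymerases I and II, with the 9 genes described here beside them (leftmost); filled points are called and named. *Maf1* stands highest at 1.46, and the 9 genes lie between -0.53 and 0.34.

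No diet comparison called any of the 16 probes by limma, in either tissue, at a fold change over 1.5 and an adjusted p under 0.05, and none was called in any of the 530 combinations of a diet comparison with an alternative. In the chosen setting the share of all probes called was 0% in each diet comparison, and the shares in the alternatives are not given here. Over the alternatives the lowest limma adjusted p of any of the 16 probes was 0.0634. In the liver the deficient diet of the dam (HH *vs.* LH) gave 2 of 16 probes with an unadjusted p under 0.05, against 12% of all probes, the deficient diet after weaning (HH *vs.* HL) 0 of 16 against 4.38%, and both together (HH *vs.* LL) 0 of 16 against 3.45%. Over all mice the diet of the dam gave 1 of 16 (4.14%), that of the offspring 0 (1.37%) and their interaction 3 (11.4%). In the colon, with slide as a block, the counts were 0 for HH *vs.* LH (8.08%), 0 for HH *vs.* HL (3.29%) and 1 for HH *vs.* LL (3.43%). Over all colon mice they were 0 for the diet of the dam (5.42%), 1 for that of the offspring (5.44%) and 0 for the interaction (4.8%). LH minus HH differed between the tissues at that threshold for 3 probes (11.3%). Comparisons with HH share the HH mice.

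What the intervals leave room for differed between the tissues, where the colon fit had slide as a block and the liver fit had none. The widths are therefore not a comparison of the tissues alone. For the LH mice against the HH mice, the widest limits over the 16 probes were -0.79 and 0.65 on the log2 scale in the liver and -0.25 and 0.21 in the colon. The colon limits lie inside a 1.5-fold change in both directions, and the liver limits do not.

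*Polr3b* had the lowest p of the liver comparison of LH with HH. The 5 HH mice were at 0.01, 0.05, -0.06, 0.20 and 0.10, and the 6 LH mice ran from 0.14 to 0.51 with a median of 0.27. The highest HH mouse lay above the lowest LH mouse, so the groups overlapped. The difference was 0.23 (SE 0.08, 95% interval 0.06 to 0.39, unadjusted p = 0.00864, adjusted p = 0.279), with LH above HH on 6 of 6 slides, where the HH arrays of slides 3 and 6 are of 1 mouse, and it ran from 0.17 to 0.35 over the alternatives. The dim *Polr3b* probe had -0.07 (-0.22 to 0.07, adjusted p = 0.723), with LH below HH on 4 of 6 slides. In the colon the same contrast gave 0.08 (-0.05 to 0.20, adjusted p = 0.819), and the tissues were not shown to differ in it (adjusted p = 0.584).

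The third probe of *Polr3g* was the only 1 of the 16 whose LH and HH liver groups did not overlap, against 1.54% of all probes. The 5 HH mice were at -0.11, -0.19, -0.06, -0.19 and -0.35 and the 6 LH mice ran from -0.03 to 0.37 with a median of 0.24, a difference of 0.37 (SE 0.13, adjusted p = 0.288). It was dim: 1 of 6 HH and 5 of 6 LH arrays were well above background, and over the alternatives the difference ran from 0.01 to 1.53. Over liver mice its correlation was 0.07 with the brightest *Polr3g* probe and -0.39 with the other one. In the same contrast these had 0.23 (-0.04 to 0.50, adjusted p = 0.497) and -0.25 (-0.68 to 0.17, adjusted p = 0.66).

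For *Polr3e* the 5 HH livers were at -0.49, -0.42, -1.05, -0.69 and -0.80 and the 6 LH livers from -1.48 to -0.67 with a median of -1.07, and the groups overlapped. The difference was -0.39 (-0.79 to 0.02, adjusted p = 0.436), while the second *Polr3e* probe had 0.11 (-0.13 to 0.35). The interaction of dam and offspring diet was 0.56 for *Polr3e* (0.01 to 1.12, adjusted p = 0.433), -0.01 for its second probe, and -0.29 for *Polr3f* (-0.53 to -0.05, adjusted p = 0.354). In the colon, *Polr3k* ranged from -0.06 to 0.52 in HH (median 0.20), from -0.02 to 0.65 in LH (median 0.30), from -0.15 to 0.44 in HL (median 0.09) and from -0.16 to 0.44 in LL (median 0.01). The groups fed the deficient diet after weaning thus had the lower medians, with overlap. The difference for the offspring diet was -0.17 (SE 0.05, -0.27 to -0.08, unadjusted p = 0.00121, adjusted p = 0.881), lower on 5 of 6 slides, against 0.01 and -0.05 on the other *Polr3k* probes. Of the genes listed around the enzyme, none was called in a diet comparison.

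**Figure D4:**
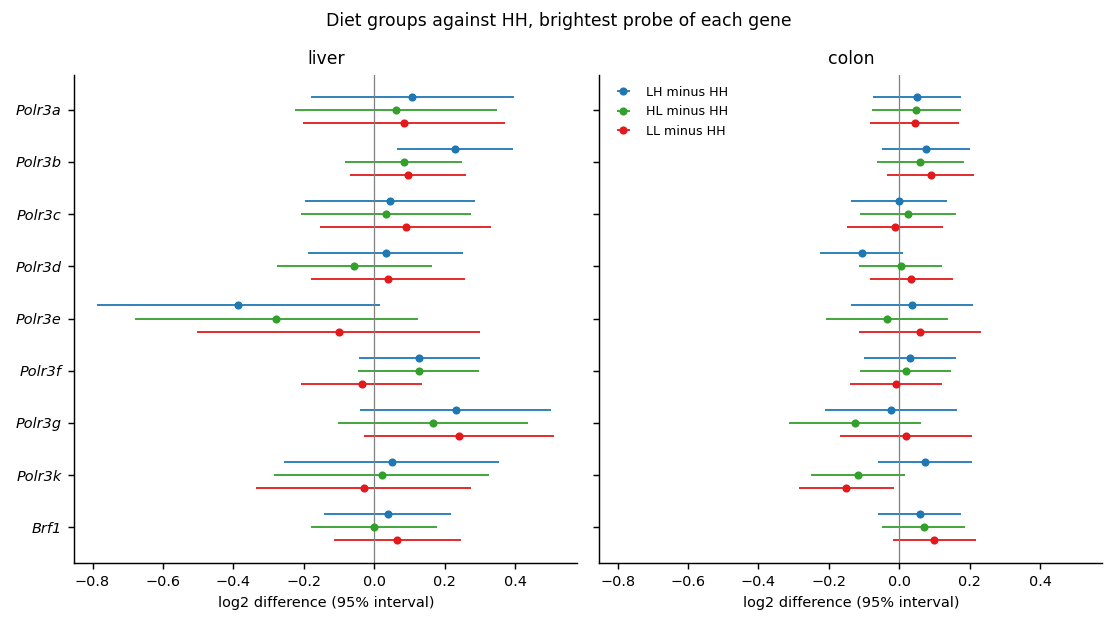
Log2 differences of LH, HL and LL from HH (horizontal axis) with 95% intervals for the brightest probe of each gene, in liver (left) and colon (right). Intervals are wider in the liver, fitted without the slide block used in the colon. There that of *Polr3e* for LH runs from -0.79 to 0.02, and none of the differences in either tissue passed the threshold after adjustment.

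Within the colon most of the probes differed between slides. In a limma F-test of slide with group in the fit, 13 of the 16 probes differed between the 6 colon slides at an adjusted p under 0.05, against 40.3% of all probes, and 1 of 16 between the 6 liver slides, against 4.92% (*Polr3a*, adjusted p = 0.0331). At an unadjusted p under 0.05, for which the share of all probes was not analysed here, this F-test gave 6 of 16 between liver slides. Among them was the brighter *Polr3e* probe (F-test, unadjusted p = 0.00511). That probe had means of -0.557 and -0.573 on liver slides 1 and 2 and of -1.168 to -0.965 on slides 3 to 6. The difference of slides 11 and 12 from slides 7 to 10 followed the place of the probe on the array, which has 532 rows. Of the 10 probes in rows 33 to 255, 8 were higher on slides 11 and 12, and of the 6 in rows 318 to 461, 6 were lower. *Polr3k*, with probes in rows 33, 35 and 66, was higher by 0.38, 0.32 and 0.36, and the second *Polr3e* probe, in row 56, by 0.475. *Brf1*, in row 428, and *Polr3a*, in row 461, had -0.31 and -0.28.

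The pattern was larger in the channel of the reference. The largest such difference over the 16 probes was 0.46 in the Cy5 channel, which holds the reference, and 0.18 in the Cy3 channel, which holds the mouse. Over 20249 probes bright on all arrays, the log2 Cy5 signal in the last 25% of the rows minus that in the first 25% was 0.43 to 0.69 on the 8 arrays of slides 11 and 12 and -0.47 to -0.22 on the other 16 colon arrays, against 0.11 to 0.20 and 0.01 to 0.09 for Cy3. With the processed signals of the scanner software 1 of 16 probes differed between colon slides (14% of all probes), and with each array's trend over rows taken off 5 of 16 (40.3% of all probes). Between liver slides limma gave 0 of 16 in both settings (0.44% and 2.18% of all probes), with 2 and 4 at an unadjusted p under 0.05. The shares of all probes at the unadjusted threshold were not analysed here. Each slide held 1 mouse of each diet group, so each group had the same number of arrays on these slides.

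**Figure D5:**
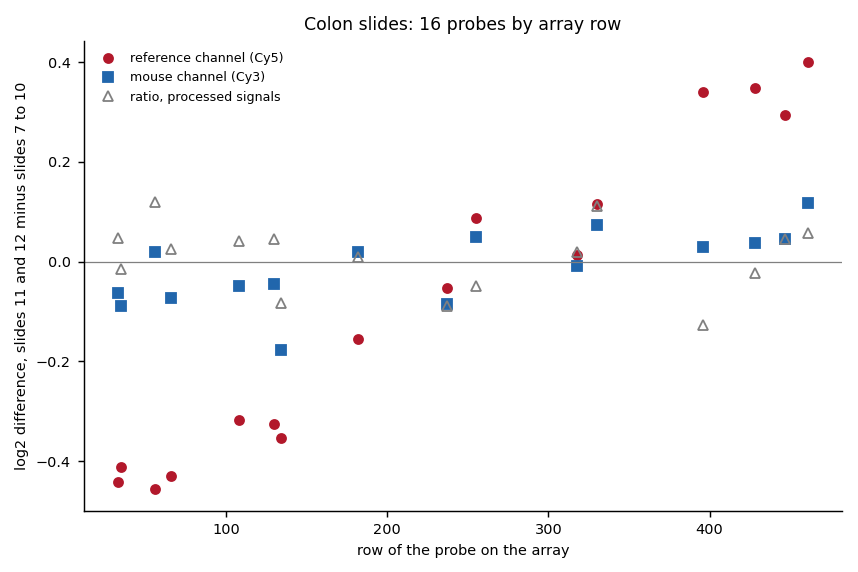
Mean log2 value on colon slides 11 and 12 minus slides 7 to 10 (vertical axis) against array row (horizontal axis) for the 16 probes, in the Cy5 channel, in the Cy3 channel and as the ratio of processed signals. The Cy5 values run from -0.46 for the second *Polr3e* probe in row 56 to 0.40 for *Polr3a* in row 461, and the Cy3 values stay within 0.18 of 0.

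In the colon the correlations between the 9 genes spanned a narrower range once that trend was taken off. There, after group means were taken off, the 36 pairs had Pearson correlations from -0.69 to 0.88 (median -0.05, n = 24), with *Polr3a* and *Brf1* at 0.88, *Polr3a* and *Polr3c* at 0.80, *Polr3b* and *Polr3k* at 0.78 and *Polr3b* and *Polr3f* at -0.69. With processed signals they ran from -0.44 to 0.51, and with the trend taken off from -0.37 to 0.45. In the liver they ran from -0.51 to 0.72 (median 0.01, n = 23), the highest being *Polr3a* with *Polr3c*, and with the trend taken off from -0.61 to 0.57. The points share arrays, slides and the reference RNA. Probes of one gene followed each other best for *Polr3k*, at 0.68 to 0.89 in the colon and 0.53 to 0.69 in the liver. The genes most like the mean of the 9 over mice were *Cop1* (r = 0.747), *Col27a1*, *Cyb5b*, *Aox1* and *Mup3* (0.705 to 0.74, n = 23) in the liver, of 18256 genes, and *Tomm34* (0.845), *Ttll12*, *Wdr12*, *Adpgk* and *Blcap* (0.805 to 0.836, n = 24) in the colon, of 18216 genes. These likenesses were computed in the chosen setting only, with the differences between slides and the trend over rows left in.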

How the data were processed

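Per the labels, Cy3 marked the mouse RNA and Cy5 the common reference on every array, with no dye swap. The authors deposited the scanner output of Agilent Feature Extraction 10.10.1.1 (version per the file headers), from which the median spot intensity, the local background intensity and the processed intensity of both channels were taken, and processed log2 ratios (reference over mouse), which were turned in sign and used as an alternative. The submitters' processing notes name R 3.0.2 and limma.

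Computations used R 4.3.3, limma 3.58.1 and the package data.table (version 1.17.8). A local background brighter than its spot was replaced by the median background of the array, normexp with an offset of 50 and then loess within each array were applied, control spots and spots marked as outliers were left out and spots of a probe averaged. The 2 arrays of one HH liver animal were averaged. Probes with values in at least 2 mice of each group were fitted with limma over the 4 groups of a tissue, without a block in the liver and with slide as a fixed block in the colon, or over all 8 groups with slide as a random block (correlation 0.206). Calls required both a fold change over 1.5 and a p under 0.05 after Benjamini-Hochberg adjustment over all probes, and intervals are 95% limits of the fit. Of the other pathway genes, those called are named. The number of arrays limits the precision. Tested on simulated data with 200 of 40247 probes changed by 1 on the log2 scale, the fits called 95.5% of them for LH minus HH in the liver, 96% in the colon and 99.5% between the tissues, and the slide test 97.5%. The simulated noise was drawn separately for each mouse, without the slide pattern of the real arrays. Smaller changes, such as the differences between diet groups here, were not simulated, so recovery of those is not known.

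The genes, the lists and the pairs were chosen with earlier results of these data known. Alternatives were other background corrections and normalizations, the processed signals, the deposited table, the Cy3 channel alone, array weights, a filter on dim probes, no slide block, leaving out mice with *Xist* and leaving out each mouse. The slide test and the lowess trend over array rows (span 0.3, fitted to spots well above background in both channels) were added after the values by slide were seen.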

Additional observations from a re-analysis of the deposited data

Results flagged for a closer look

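Of 72 combinations of a gene with a diet group of a tissue, 2 held a mouse far from the others of its group, by Dixon's criterion at 95%, and chance alone gives about 3.6. *Polr3f* was at -0.48 in the colon of LL replicate 6, on slide 12, where the other 5 mice lay between -0.14 and 0.04. *Polr3g* was at 0.54 in the liver of LH replicate 5, on slide 5, where the others lay between 0.73 and 0.83.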

How the results depend on the processing

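No diet comparison called any of the 16 probes under any alternative. At an unadjusted p under 0.05 the counts of 16 were 2 for LH minus HH, 1 for the diet of the dam and 3 for the interaction in the liver, 1 for LL minus HH and 1 for the offspring diet in the colon, and 3 for LH minus HH between the tissues. Between colon and liver, the 1 call became 13 without a minimum fold (13 also by unadjusted p), 7 with the Cy3 channel alone, 4 each with median centring, offset 0 and processed signals, 2 without mice with *Xist*, 0 without the background repair, 0 with the trend over rows taken off and 0 to 1 with a mouse left out. Median centring gave 9 probes higher and 3 lower in the colon, and offset 0 gave 1 higher. By adjusted p without a minimum fold the share of all probes was 63.9%, and the shares for the other counts are not given here. Signs turned under median centring for *Polr3a* (0.16), *Polr3d* (0.42), *Polr3e* (0.42, and 0.027 on the second probe), *Polr3f* (0.18), *Polr3g* (0.094 and 0.022) and the third *Polr3k* probe (0.57). *Polr3b* had -0.059 with Cy3 alone, -0.050 with offset 0 and -0.029 with processed signals, *Polr3c* -0.038 with offset 0, and the third *Polr3k* probe 0.0039 with processed signals and 0.0029 with the trend over rows taken off. The cause was not tested. Probes differing between colon slides numbered 3 with Cy3 alone, 1 with processed signals (14% of all probes), 5 with the trend over rows taken off (40.3%) and 11 to 13 with a mouse left out. Between liver slides the 1 became 0 with Cy3 alone, offset 0, no background repair, processed signals (0.44%) or the trend over rows taken off (2.18%), and 0 to 3 with a mouse left out. For the other slide counts the shares of all probes were not analysed here. No paired analysis was possible because the labels give mice no replicate numbers, other than by slide, the block used in the colon. No diet comparison called any of the 16 probes with slide as a fixed block in the liver. The same held with a random or no slide block in the colon. Dim probes of *Polr3b*, *Polr3f* and *Polr3g* are limited by their signal over background.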
